A study of Mus musculus with 6 samples.

Results

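The genes described here are 35 genes of the hair follicle: the keratins of the hair shaft, inner root sheath, companion layer and upper follicle (21 genes), trichohyalin, 2 peptidylarginine deiminases and 11 transcription regulators of hair differentiation. They were chosen by symbol and matched through their Ensembl identifiers to 35 rows of a table of 38924 genes, and all 35 passed the filter on low counts. RNA sequencing had been done on mouse epidermal cells sorted for CD49f, the integrin alpha 6 of basal keratinocytes. All 6 samples were flox/flox for Rnaseh2b, a subunit gene of RNase H2. K14-Cre, in which the keratin 14 promoter drives Cre recombinase in basal and outer root sheath keratinocytes, was present in 3 of them (Cre-positive) and absent in the other 3 (Cre-negative). The labels give neither the age of the mice nor whether all replicates are separate animals. Sex-linked genes placed both sexes in each group, so each holds at least 2 animals, and p-values measure the spread between these libraries.

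The hair shaft grows from proliferating matrix cells at the base of the follicle. These cells differentiate into the medulla, cortex and cuticle of the shaft, and into the inner root sheath that surrounds it. A companion layer and the outer root sheath, which is continuous with the basal epidermis, lie outside. Each compartment builds its filaments from type I and type II keratins, which pair with each other. Trichohyalin hardens the inner root sheath and medulla after deimination by peptidylarginine deiminases. Hair keratins are made mainly during the growth phase of the hair cycle. In bulk RNA, fewer cells of a type and less RNA per cell cannot be told apart.

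Type I keratin genes of this set lie on chromosome 11 of mm10, the inner root sheath genes between 99315516 and 99374903 and the 7 hair shaft genes between 100011195 and 100105626. The type II genes, with Krt75 and Krt79, lie on chromosome 15 between 101459061 and 101940324. RefSeq promoters (GRCm38.p6) were matched for 25 of the 35 genes. The 100 bases before the RefSeq start are shown for 5 sheath and shaft keratins with TATAAA close to the start and for 2 keratins without these letters, the shaft keratin Krt36 and the upper-follicle keratin Krt79. Capitals mark TATAAA, the TATA box core, on the gene's own strand. Only these exact letters were counted, so a window without them may still hold a variant of the box.
Krt25 (chr11:99322952-99323051, minus strand): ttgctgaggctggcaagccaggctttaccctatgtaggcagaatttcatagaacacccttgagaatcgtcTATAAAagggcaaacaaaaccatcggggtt
Krt28 (chr11:99374904-99375003, minus strand): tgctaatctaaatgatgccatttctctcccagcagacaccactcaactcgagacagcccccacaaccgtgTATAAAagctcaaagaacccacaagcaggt
Krt73 (chr15:101802361-101802460, minus strand): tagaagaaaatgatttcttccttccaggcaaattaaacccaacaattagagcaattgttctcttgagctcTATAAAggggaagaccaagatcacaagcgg
Krt31 (chr11:100050552-100050651, minus strand): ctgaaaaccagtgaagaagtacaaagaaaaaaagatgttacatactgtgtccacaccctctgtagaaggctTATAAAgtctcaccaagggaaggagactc
Krt34 (chr11:100041555-100041654, minus strand): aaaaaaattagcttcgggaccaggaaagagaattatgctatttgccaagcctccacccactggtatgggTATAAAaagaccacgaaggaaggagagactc
Krt36 (chr11:100105627-100105726, minus strand): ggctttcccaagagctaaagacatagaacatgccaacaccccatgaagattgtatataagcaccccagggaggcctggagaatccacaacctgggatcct
Krt79 (chr15:101940325-101940424, minus strand): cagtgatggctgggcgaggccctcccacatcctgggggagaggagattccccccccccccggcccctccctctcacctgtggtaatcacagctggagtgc

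TATAAA was present on the gene's strand in 10 of 16 keratin promoters and in 0 of the 9 others. Its first base lay 29 to 31 bases before the start in 7 of the 10, and at 15 bases in Krt27, 40 in Krt71 and 47 in Krt33b. Over all 32851 RefSeq promoters, the same window held it in 3.80% on the gene's strand and in 5.56% on either strand. No member held it on the reverse strand. CTTTGAA, a core site of the Wnt-responsive factor LEF1, was in 0 of the 25 windows on either strand and in 1.44% of all promoters. The keratins without a TATAAA match were Krt36, Krt72, Krt75, Krt79, Krt82 and Krt84. In Cre-negative replicate 2, the 10 keratins with a match had a median level of 1.67-fold over Cre-negative replicates 1 and 3, and the 6 without had one of 1.68-fold.

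By the quasi-likelihood test of edgeR, none of the 35 hair genes passed an adjusted p of 0.05 in either direction, against 0.515% of the 15525 tested genes (0.406% that rose with Cre and 0.11% that fell). The smallest adjusted p was 0.169, for Padi1. Log2 fold changes, Cre-positive over Cre-negative, were below 0 in 32 of the 35, and in 51% of all tested genes, with medians of -0.41 and -0.005. An unadjusted p under 0.05 was reached by 9 members that lay lower and 1 that lay higher. Over all tested genes 8.48% reached it on the lower and 10.3% on the higher side, 18.8% in all. The 3 libraries of each group did not overlap for 10 members that lay lower and 1 that lay higher with Cre, and over all tested genes this held for 13.8% lower and 14.1% higher, or 28% in either direction. The DESeq2 Wald test called 2 members lower, Krt35 and Krt71 (adjusted p = 0.0341 and 0.0391), and limma-voom called 0. Over all 15525 tested genes DESeq2 called 837, of which 283 lay lower, and limma-voom called 66. Without Cre-negative replicate 2 the median of the 35 was -0.07, and 27 of 35 lay below 0. That library was the highest for 28 of the 35, so leaving it out by itself raises their log2 fold changes. Leaving out any other library gave medians of -0.56 to -0.33.

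**Figure D1:**
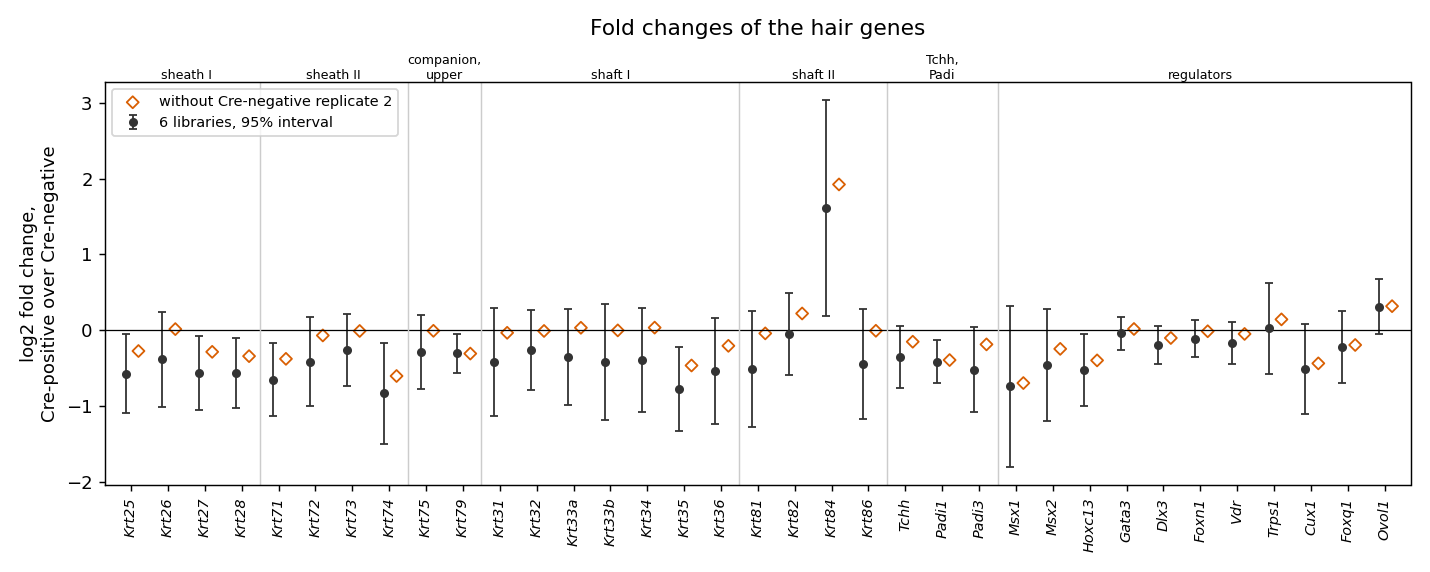
Log2 fold change of each hair gene by edgeR, Cre-positive over Cre-negative, with its 95% interval (filled points, 3 libraries against 3), beside the value without Cre-negative replicate 2 (open diamonds). All but Krt84, Trps1 and Ovol1 lie below 0 with 6 libraries. Without Cre-negative replicate 2, the highest library for 28 of the 35, 30 of 35 lie closer to 0.

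Libraries held 22948779 to 31718094 counts, and a floor of 3 counts corresponds to 0.0922 to 0.143 CPM (read counts relative to library totals, as scaled by edgeR). Rnaseh2b had 172, 90 and 69 counts with Cre and 543, 504 and 570 without, which matches the labels; counts are per gene, so exons outside the deleted part are included. The basal markers Krt5 and Krt14 stood at 3762 and 3054 CPM per kb of exon, and the suprabasal Krt10 and Krt1 at 26120 and 15150, so that RNA of differentiated keratinocytes was present in the sorted cells. Cre-positive replicate 3 had the lowest sum of 5 proliferation markers (365 CPM, against 666 to 738 in the other libraries). Cre-positive replicate 1 and Cre-negative replicate 3 had the highest sums of 6 fibroblast markers (1368 and 811 CPM, against 176 to 288). Xist and Y-linked genes marked Cre-negative replicates 1 and 3 and Cre-positive replicate 3 as female and the other libraries as male.

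In levels per length, hair genes ran from 0.564 CPM per kb for Krt84 to 393 for Krt79. Krt79, a keratin of the upper follicle and sebaceous duct, lay above 99.4% of all tested genes on this scale. The inner root sheath keratins Krt71, Krt25 and Krt27 followed at 179, 107 and 91.2 CPM per kb, with trichohyalin at 88.5. Among hair shaft keratins the highest was Krt35, a keratin of the matrix and cuticle, at 13.96 CPM per kb. Every other shaft keratin of this set lay between 0.564 and 7.76. Among the listed genes, inner root sheath keratins outweighed those of the shaft in every library. Summed per length, type I genes stood at 171 to 378 CPM per kb in the sheath and 33.4 to 77.6 in the shaft. Type II genes stood at 164 to 358 and 12.0 to 24.8 CPM per kb. The shaft sums leave out some shaft genes, among them Krt83 and Krt87 at 8.78 and 7.58 CPM per kb. Up to 43.3% of the 50-base windows of a shaft keratin also occur in another gene, against up to 11.1% in the sheath. A part of such reads may have been dropped in counting.

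**Figure D2:**
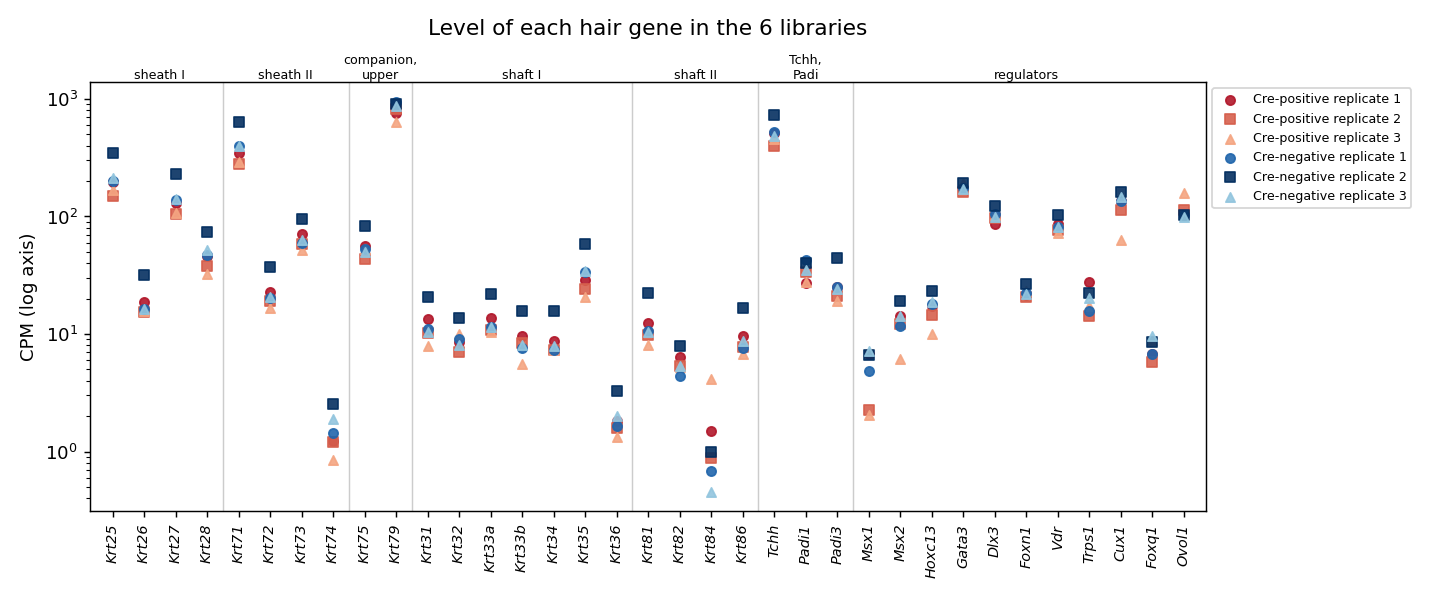
CPM of each hair gene in each of the 6 libraries on a log axis, with genes ordered by role (CPM is not divided by length). Krt79, trichohyalin and Krt71 are the most abundant, and Krt74, Krt36 and Krt84 lie near 1 CPM.

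Type I keratins of the inner root sheath are Krt25, Krt27 and Krt28, found through its layers, and Krt26 of its cuticle. Krt25 stood at 196, 149 and 169 CPM in Cre-positive replicates 1, 2 and 3 and at 202, 349 and 213 CPM in the Cre-negative ones. The groups did not overlap, yet the Cre-positive libraries lay close to Cre-negative replicates 1 and 3, and Cre-negative replicate 2 stood well above all the rest. Its log2 fold change was -0.57 (SE 0.22, with an adjusted p of 0.234 by edgeR), and -0.27 without that library.

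Krt27 had the same shape, with 129, 106 and 107 CPM with Cre and 138, 229 and 140 without. Krt28 had 46.0, 37.9 and 32.6 CPM with Cre and 47.2, 74.2 and 51.5 without. For both, the groups did not overlap and Cre-negative replicate 2 was highest. Their log2 fold changes were -0.57 and -0.57 (edgeR adjusted p = 0.219 and 0.206), and -0.28 and -0.34 without Cre-negative replicate 2. Krt26 overlapped between groups, at 15.4 to 18.6 CPM with Cre and 16.4 to 32.0 without, and its log2 fold change of -0.38 became 0.02 without that library. Krt25 and Krt27 share sequence: 11.1% of the 50-base windows in Krt27 transcripts are also in Krt25, so a part of their reads may have been exchanged or dropped in counting.

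Among type II keratins of the inner root sheath, Krt71, which is expressed in all its layers, was the most abundant. It stood at 345, 277 and 289 CPM with Cre and at 396, 641 and 395 CPM without. No Cre-negative library overlapped the Cre-positive ones. Cre-negative replicates 1 and 3 lay just above the highest Cre-positive library and replicate 2 far above. The log2 fold change was -0.65 (SE 0.21, 95% interval -1.13 to -0.17, with an adjusted p of 0.182 by edgeR). Without Cre-negative replicate 2 it was -0.38 (edgeR adjusted p = 0.341).

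The keratins of the sheath cuticle, Krt72 and Krt73, overlapped between groups. Krt73 had 70.8, 57.8 and 52.1 CPM with Cre against 58.9, 95.3 and 62.6 without, and Krt72 had 22.7, 18.9 and 16.8 against 20.4, 37.1 and 20.6. Both were highest in Cre-negative replicate 2, and their log2 fold changes of -0.26 and -0.41 came to -0.01 and -0.07 without it. Krt74, a keratin of the Huxley layer, was low, at 1.23, 1.20 and 0.855 CPM with Cre against 1.44, 2.55 and 1.90 without. Groups did not overlap here either, and its log2 fold change of -0.83 (SE 0.28, with an adjusted p of 0.200 by edgeR) was the lowest of the 35. It rests on 18 to 62 counts per library.

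Summed per length, type I and type II sheath keratins stood at nearly equal levels in every library. In Cre-positive replicates 1, 2 and 3 the type I sum was 1.06, 1.04 and 1.08 times the type II sum. In the Cre-negative ones it was 1.02, 1.06 and 1.06 times. The library with the highest sheath sums, Cre-negative replicate 2, had 378 CPM per kb of type I and 358 of type II, and so lay on the same line as the others. Hair shaft keratins of this set were unequal: type I stood 2.80 to 3.54 times above type II. The shaft list here lacks some type II genes (Krt83 and Krt87 are given with the other shaft genes, and Krt85 was not analysed here), so its ratio is that of the listed genes.

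**Figure D3:**
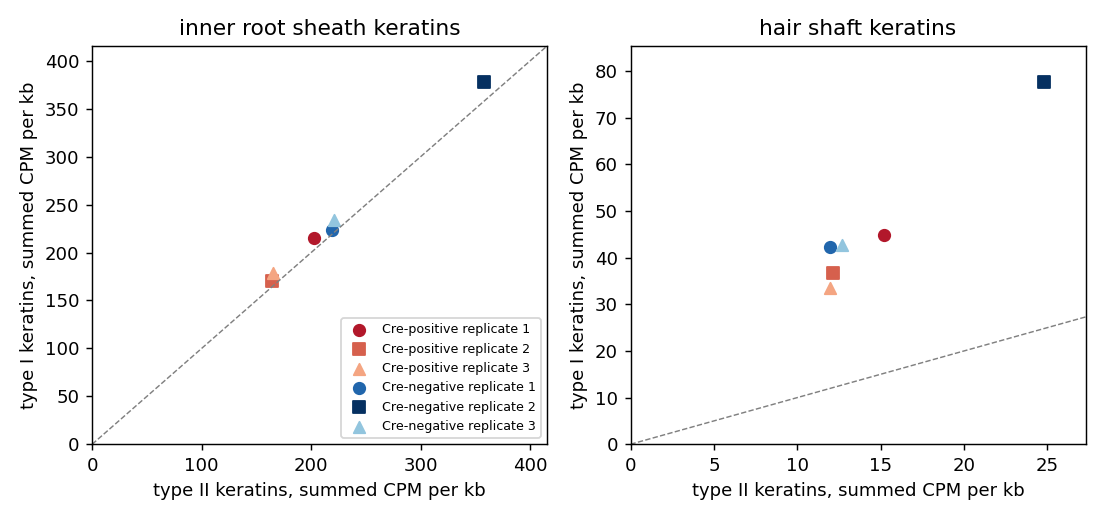
Summed CPM per kb of type I against type II keratins in each library, for the inner root sheath (4 genes each) and the hair shaft (7 and 4 genes); the dashed line marks equal sums. Sheath sums lie near the line in all 6 libraries, with Cre-negative replicate 2 far up along it.

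Of the type I hair shaft keratins, Krt35 had 29.0, 24.2 and 20.8 CPM with Cre and 33.7, 58.5 and 34.6 without. The groups did not overlap. The log2 fold change was -0.77 (SE 0.24, 95% interval -1.33 to -0.22, with an adjusted p of 0.175 by edgeR), and -0.46 without Cre-negative replicate 2. The cortex keratins Krt31 and Krt33a overlapped between groups. Krt31 had 13.4, 10.1 and 7.89 CPM with Cre against 11.03, 20.7 and 10.5 without, and Krt33a had 13.7, 10.8 and 10.4 against 11.4, 21.9 and 11.4. In both, Cre-positive replicate 1 lay above Cre-negative replicates 1 and 3, and Cre-negative replicate 2 was highest. Log2 fold changes were -0.42 and -0.35, and without Cre-negative replicate 2 Krt31 had -0.03 and Krt33a 0.03. The remaining 4, Krt32 of the cuticle, Krt33b and Krt34 of the cortex, and Krt36, had log2 fold changes of -0.26 to -0.53 with edgeR adjusted p-values of 0.371 to 0.547, and of -0.21 to 0.04 without Cre-negative replicate 2.

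Type II shaft keratins Krt81 and Krt86 of the cortex followed the same pattern. Krt81 had 12.4, 9.87 and 8.08 CPM with Cre against 10.6, 22.5 and 10.3 without. Krt86 had 9.68, 7.75 and 6.75 CPM against 7.62, 16.8 and 8.64. In both, Cre-negative replicates 1 and 3 lay inside the Cre-positive range and replicate 2 above it, and their log2 fold changes of -0.51 and -0.44 came to -0.04 and -0.01 without it. Of their 50-base windows, 37.7% in Krt81 and 43.3% in Krt86 also occur in another gene, mostly in each other, so these values are uncertain as levels of single genes. The same holds for Krt31, Krt33a, Krt33b and Krt34, with 17.8% to 33.1% of windows shared. Krt82 of the cuticle had 6.33, 5.31 and 5.27 CPM with Cre against 4.37, 7.85 and 5.33 without, and a log2 fold change of -0.05 (SE 0.23, 95% interval -0.59 to 0.49), a sign that turned in limma-voom (0.01) and without Cre-negative replicate 2 (0.22).

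Krt84 went against the other shaft keratins; it was singled out after its values were seen. It had 49, 20 and 88 counts with Cre and 17, 24 and 12 without, or 1.51, 0.885 and 4.18 CPM against 0.682, 0.986 and 0.457. Cre-positive replicate 3 stood highest, and Cre-positive replicate 2 lay below Cre-negative replicate 2, so the groups overlapped. The log2 fold change was 1.61 (SE 0.60, with an adjusted p of 0.225 by edgeR), and 0.77 without Cre-positive replicate 3. Krt84 is known from tongue papillae and nail as well as hair.

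Cre-negative replicate 2 had the highest level of the 6 libraries for 18 of the 19 sheath and shaft keratins, all but Krt84, against 12.7% of all tested genes. Over the mean of Cre-negative replicates 1 and 3 it stood 1.504-fold to 2.15-fold for these 19 keratins, with a median of 1.73, while the median over all tested genes was 0.996. With 6 libraries, 18 of the 19 had log2 fold changes below 0 and a median of -0.42. Leaving out any 1 library other than Cre-negative replicate 2 gave the 19 medians of -0.60 to -0.35. Leaving Cre-negative replicate 2 out, 14 of the 18 other than Krt84 stayed below 0 with a median of -0.04: the 8 sheath keratins then had a median of -0.28 and the 10 shaft keratins one of -0.01. Regulators departed less in that library, at 1.01-fold to 1.47-fold.

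Summed markers of the 12 other cell groups stood at 0.571 to 1.13 times in Cre-negative replicate 2. Single markers spread wider, from 0.3603-fold for Col1a1 (fibroblast) to 2.52-fold for Mc5r (sebaceous) over the mean of Cre-negative replicates 1 and 3. Defb6 (upper follicle) and Corin (dermal papilla) stood at 2.004-fold and 1.81-fold, within the range of the hair keratins. Mc5r, Defb6 and Corin had 79, 20 and 84 counts there. Group medians of these folds ran from 0.611 (fibroblast) to 1.14 (melanocyte) in Cre-negative replicate 2. Its summed basal markers were 0.869 times, its suprabasal markers 0.804 times and its proliferation markers 0.909 times those of Cre-negative replicates 1 and 3, and its summed dermal papilla markers 1.01 times. The dermal papilla sum was 27.4 CPM there, between the 16.8 and 37.3 CPM of Cre-negative replicates 1 and 3. The highest of the 12 sums was that of melanocyte markers at 1.13 times. All 5 of these lay above both other Cre-negative libraries, as did 5176 of all 15525 tested genes. Cre-negative replicate 2 was the only male library of its group. Among Cre-positive libraries the sheath keratins summed to 830 and 664 CPM in the males and 683 CPM in the female. With sex as a covariate the median log2 fold change of the 19 keratins was -0.64, and the smallest adjusted p among them was 0.0636 by edgeR, for Krt35. Sex and this library cannot be told apart among the Cre-negative samples.

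**Figure D4:**
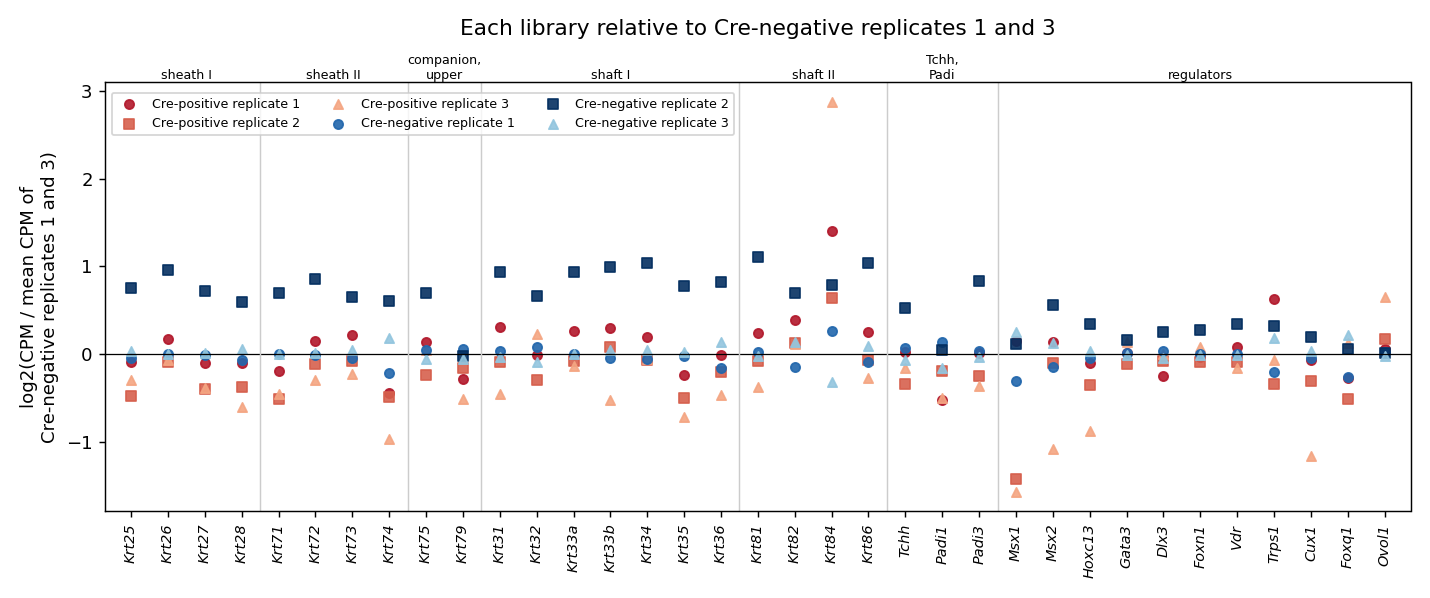
Level of each hair gene in each library as log2 of its CPM over the mean CPM of Cre-negative replicates 1 and 3, with genes ordered by role. The squares of Cre-negative replicate 2 stand above the other libraries for the sheath and shaft keratins other than Krt84, and near them for Krt79, Padi1 and most regulators.

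Krt75, a keratin of the companion layer and medulla, had 56.3, 43.4 and 52.9 CPM with Cre and 52.9, 83.3 and 49.4 without, and thus the same single high library. Its log2 fold change of -0.28 came to -0.01 without Cre-negative replicate 2. Krt79 of the upper follicle differed from this: it had 752, 818 and 641 CPM with Cre and 950, 902 and 877 without. The groups did not overlap, and Cre-negative replicate 2 lay between its fellows. The log2 fold change of Krt79 was -0.30 (SE 0.11, with an adjusted p of 0.219 by edgeR), and -0.31 without Cre-negative replicate 2.

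Trichohyalin (Tchh) had 511, 397 and 452 CPM with Cre and 528, 724 and 480 without, overlapping between Cre-positive replicate 1 and Cre-negative replicate 3. Its log2 fold change was -0.35 (SE 0.17, with an adjusted p of 0.324 by edgeR), and -0.15 without Cre-negative replicate 2. Padi3, a deiminase of the inner root sheath and medulla, had 24.9, 20.9 and 19.2 CPM against 25.4, 44.0 and 24.1, again with Cre-negative replicate 2 alone at the top; its log2 fold change of -0.52 came to -0.19 without that library. Padi1, a deiminase also found in the interfollicular epidermis, had 27.1, 33.9 and 27.6 CPM against 42.8, 40.3 and 34.8. Its groups did not overlap, no single library stood out, and its log2 fold change of -0.41 (SE 0.12, with an adjusted p of 0.169 by edgeR) ran from -0.52 to -0.34 when any 1 library was left out. Gm13032, transcribed in the other direction, overlaps 32.0% of the exonic bases of Padi1 and had a mean of 6.33 counts.

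The 11 regulators had a median log2 fold change of -0.19, with 9 below 0, and none passed the threshold by edgeR. Hoxc13, a homeobox factor known to act on hair keratin genes, had 17.2, 14.5 and 10.03 CPM with Cre and 17.9, 23.3 and 18.9 without. All 3 Cre-positive libraries lay below the Cre-negative ones, but Cre-positive replicate 1 came within 1 CPM of the lowest Cre-negative library. The log2 fold change was -0.52 (SE 0.20, with an adjusted p of 0.232 by edgeR), and -0.34 without Cre-positive replicate 3. Cux1, a homeodomain factor of the inner root sheath lineage, had 135, 114 and 62.9 CPM against 137, 161 and 145. Cre-positive replicate 3 was by far the lowest, and the log2 fold change of -0.51 came to -0.25 without it.

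Gata3, which directs the inner root sheath lineage, overlapped between groups, with 175, 161 and 191 CPM with Cre and 175, 194 and 172 without. Its log2 fold change was -0.04 (SE 0.09, 95% interval -0.26 to 0.18, with an adjusted p of 0.841 by edgeR), and this sign turned without Cre-positive replicate 2 (0.02) or Cre-negative replicate 2 (0.02). Ovol1, a zinc finger factor of epidermal and hair differentiation, was the only member whose groups did not overlap with the higher values in Cre-positive libraries. It had 105, 114 and 160 CPM against 103, 102 and 99.9, which puts Cre-positive replicate 1 just above the Cre-negative range. The log2 fold change was 0.31 (SE 0.15, with an adjusted p of 0.316 by edgeR), and 0.11 without Cre-positive replicate 3.

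The homeobox gene Msx2 was lowest in Cre-positive replicate 3 (6.13 CPM, against 11.7 to 19.1 in the other libraries), and Msx1 was low in Cre-positive replicates 2 and 3 (2.26 and 2.04 CPM, against 4.89 to 7.19). Their log2 fold changes were -0.46 and -0.74, with edgeR adjusted p-values of 0.458 and 0.412. Both moved with single libraries: Msx1 ran to -1.53 without Cre-positive replicate 1 (adjusted p = 0.0713 by edgeR) and -0.45 without Cre-positive replicate 3, and Msx2 to -0.71 and -0.18 without the same libraries and -0.25 without Cre-negative replicate 2. In Cre-positive replicate 3 proliferation markers were low as well. Msx1 stood at 6.70 and 7.19 CPM in Cre-positive replicate 1 and Cre-negative replicate 3, the libraries with the highest fibroblast sums, and at 6.57 CPM in Cre-negative replicate 2. The part of proliferating cells or fibroblasts in these values was not tested. Dlx3, Foxn1, Vdr, Trps1 and Foxq1 had log2 fold changes of -0.22 to 0.03, with edgeR adjusted p-values of 0.367 to 0.967. The sign of Trps1 (0.03) turned under total count scaling (-0.07), with sex as a covariate (-0.08) and without Cre-positive replicate 1 (-0.31) or Cre-negative replicate 1 (-0.11). Mutations of Foxn1 and Vdr are known to cause hairlessness, and Foxq1 acts in the medulla. A530084C06Rik, transcribed in the other direction, overlaps 41.6% of the exonic bases of Foxq1, so reads of the pair cannot be told apart there without a known strand setting.

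Keratin-associated proteins fill the space between the keratin filaments of the shaft. Of 55 listed genes 40 were tested, and edgeR called 0 in either direction. DESeq2 called 1 and limma-voom 0, against 837 and 66 of all 15525 tested genes. An unadjusted edgeR p under 0.05 was reached by 1, against 18.8% of all tested genes. The median log2 fold change of the 40 was -0.36 against -0.005 over all tested genes. All 40 lay higher in Cre-negative replicate 2 than in the other Cre-negative libraries, as did 5176 of all 15525 tested genes. The median of the 40 there was 2.11-fold over the mean of Cre-negative replicates 1 and 3. The summed level of the list was 248 CPM there, against 115 and 125 CPM in Cre-negative replicates 1 and 3 and 122 to 151 CPM with Cre. Krtap1-5 and Krtap4-6 had log2 fold changes of -0.68 and -0.57. Krtap13 was apart, with 44, 14 and 144 counts with Cre and 1, 6 and 1 without. Its log2 fold change was 4.71 (SE 1.16, with an adjusted p of 0.127 by edgeR). Like Krt84 it was highest in Cre-positive replicate 3, and its groups did not overlap. Among the 40 tested, this held for 1 that lay higher and 0 that lay lower with Cre, against 14.1% and 13.8% of all tested genes.

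**Figure D5:**
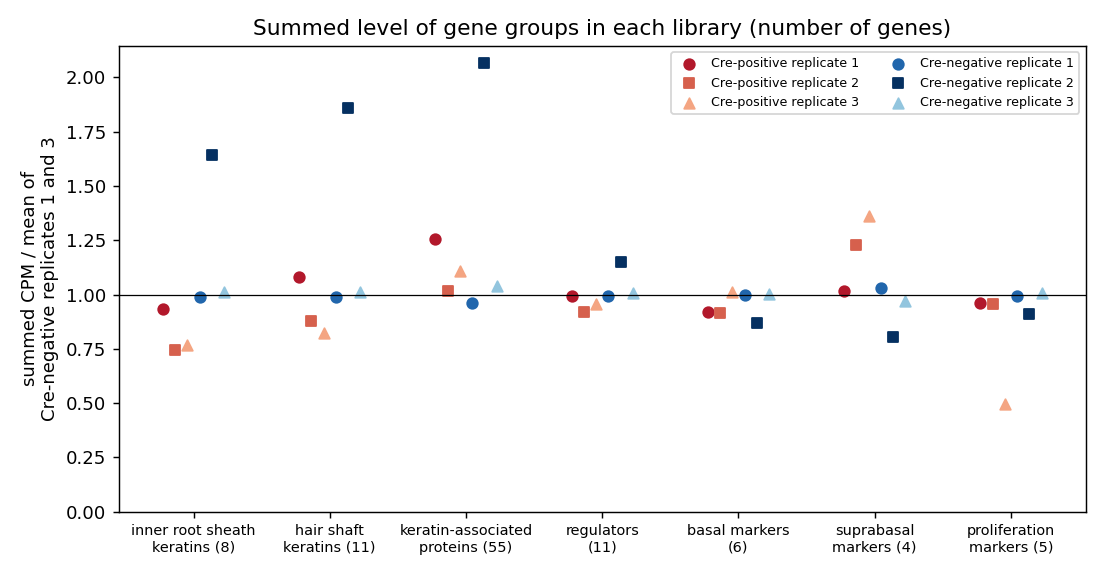
Summed CPM of gene groups in each library, divided by the mean of Cre-negative replicates 1 and 3. Cre-negative replicate 2 reaches 1.64 for sheath keratins, 1.86 for shaft keratins and 2.07 for keratin-associated proteins, and lies below 1 for basal, suprabasal and proliferation markers.

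Other shaft and sheath genes, 15 tested of 16 found, had a median log2 fold change of -0.43, and edgeR called 0 of them. DESeq2 called 2 and limma-voom 0, against 837 and 66 of all 15525 tested genes. An unadjusted edgeR p under 0.05 was reached by 2, against 18.8% of all tested genes. In this list too 12 of 15 were higher in Cre-negative replicate 2 than in the other Cre-negative libraries, as were 5176 of all 15525 tested genes. Among the 12 were Krt83, Krt87, S100a3 and Prr9 at 1.91-fold, 1.98-fold, 1.86-fold and 1.81-fold. The smallest p-values belonged to 2 keratins of the outer root sheath and companion layer. Krt6a, also a wound keratin, had 323, 220 and 379 CPM with Cre against 111, 122 and 190 without (log2 fold change 1.12, SE 0.26, with an adjusted p of 0.116 by edgeR). Krt17 had 885, 910 and 568 CPM against 1256, 1189 and 1280 (log2 fold change -0.66, SE 0.18, with an adjusted p of 0.149 by edgeR), and passed without Cre-positive replicate 3 (edgeR adjusted p = 0.0196). The groups did not overlap for either, and neither was raised in Cre-negative replicate 2. Among the 15 tested, the groups did not overlap for 1 that lay higher and 1 that lay lower with Cre. Over all tested genes this held for 14.1% higher and 13.8% lower. Gprc5d, a receptor gene of the shaft, had -0.72.

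Of 25 other follicle regulators 23 were tested, with a median log2 fold change of -0.10, and edgeR called 0 of them. DESeq2 called 3 and limma-voom 0, against 837 and 66 of all 15525 tested genes. An unadjusted edgeR p under 0.05 was reached by 6, against 18.8% of all tested genes. Hr, the hairless corepressor gene, had 732, 725 and 812 CPM with Cre against 393, 594 and 448 without (log2 fold change 0.66, SE 0.16, with an adjusted p of 0.119 by edgeR). Sox21, a factor of the hair cuticle, had 57.4, 60.7 and 42.3 CPM against 82.5, 89.3 and 74.4 (log2 fold change -0.62, SE 0.14, with an adjusted p of 0.117 by edgeR), and passed without Cre-positive replicate 3 (edgeR adjusted p = 0.0401). Ovol2 had 4.70, 6.68 and 4.75 CPM against 8.46, 8.30 and 8.45. In each of these 3 the groups did not overlap, and the Cre-negative libraries lay within a narrow range for Ovol2. Among the 23 tested, the groups did not overlap for 2 that lay higher and 9 that lay lower with Cre. Over all tested genes this held for 14.1% higher and 13.8% lower.

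Markers of the bulge, upper follicle and other cells were summed for comparison. Krt15 of the bulge, where hair follicle stem cells lie, had 926, 941 and 1236 CPM with Cre against 2193, 1764 and 1915 (log2 fold change -0.92, SE 0.15, with an adjusted p of 0.0572 by edgeR). Lhx2 of the bulge had -0.38, and the 6 bulge markers summed to 1206 to 1430 CPM with Cre and 2121 to 2489 without. Upper follicle markers summed to 504 to 549 CPM against 543 to 580, with Lrig1 at -0.41 and Cst6 at 0.38. In Cre-negative replicate 2 these sums were 0.898 and 1.07 times those of Cre-negative replicates 1 and 3. Krt15 makes up most of the bulge sum, and 4 of the 6 bulge markers were highest in that library, against 12.7% of all tested genes.

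All 5 melanocyte markers rose by edgeR, and their sum was 568 to 675 CPM with Cre and 319 to 368 without; Dct and Pmel rose by 0.82 and 0.84 on the log2 scale. Other summed levels with and without Cre were 15340 to 16910 and 14560 to 16760 CPM for basal markers, 99310 to 132800 and 78490 to 100400 CPM for suprabasal markers, 15.5 to 61.3 and 16.8 to 37.3 CPM for dermal papilla markers, and 363 to 386 and 364 to 455 CPM for sebaceous markers. The sums were 1.73 to 19.8 and 2.57 to 18.5 CPM for endothelial markers, 17.9 to 28.3 and 26.6 to 31.0 CPM for T cell markers, and 46.5 to 62.4 and 81.4 to 116 CPM for Langerhans and myeloid markers. Of the Langerhans and myeloid genes Csf1r and Cd74 had log2 fold changes of -0.04 and -2.42 (adjusted p = 0.911 and 0.0572 by edgeR), and Lyz2 rose and H2-Ab1 fell (1.33 and -2.29 on the log2 scale, adjusted p = 0.0369 and 0.0400 by edgeR). Log2 fold changes of the other abundant markers were -0.32 and -0.24 for Mki67 and Top2a, 0.40 and 0.56 for Col3a1 and Col1a2, 0.68 and 0.12 for Wif1 and Alx4, 0.20 and -0.61 for Fasn and Scd1, -0.67 and 0.02 for Kdr and Cdh5, and -0.07 and -1.11 for Thy1 and Cd3g, none past the threshold by edgeR. Krt5 and Krt14 had -0.10 and 0.06, and Krt10 and Krt1 had 0.37 and 0.37, also not past the threshold by edgeR. All 4 suprabasal markers lay above 0, from 0.32 to 0.91. An unadjusted edgeR p under 0.05 was reached by 3 of these 4, against 10.3% of all tested genes on the higher side. As whole lists, sebaceous markers ran from -0.80 to 0.20, with 4 of 5 below 0. For 3 of the 5 all Cre-positive libraries lay below the Cre-negative ones, as for 13.8% of all tested genes. Dermal papilla markers ran from -0.67 to 0.68 (2 of 5 below 0), and endothelial markers from -1.82 to 0.39 (2 of 4 below 0). No marker was at 0 in every library, and the part of these cells in the hair gene values was not tested.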

How the data were processed

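The deposited table holds unnormalized counts of 6 libraries, made by the authors, beside the exons and exon length of each gene, per the file headers. GSNAP and featureCounts are the aligner and counter named for mm10, per the submitters' processing notes. Their versions, the strand setting and the treatment of shared reads were not stated (not given in the sources used here). Symbols were matched by Ensembl identifier for 37607 of 38924 genes.

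Genes were filtered with filterByExpr (minimum count 10), scaled by TMM and fitted in edgeR 4.0.16 (R 4.3.3), whose two-sided quasi-likelihood test was used without covariates, with Benjamini-Hochberg adjustment over 15525 genes. CPM values use the TMM-scaled totals. DESeq2 1.42.0 and limma 3.58.1 were alternatives, among 14 in all. On simulated counts for this comparison the share of altered genes found by edgeR was 9.0% at 1.5-fold, 63.8% at 2-fold and 95.3% at 4-fold. False calls there were 13 of 124 by edgeR, 37 of 169 by DESeq2 and 14 of 125 by limma-voom. No pair of libraries in a group agreed within counting noise (chi-square per degree of freedom 9.11 to 70.4).

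Per-library values are given for members whose groups do not overlap and for the 3 most abundant of each role; other lists are named by their 3 smallest p-values and marker lists by their 2 most abundant genes (mean CPM). Krt83, Krt87, S100a3, Prr9, Lyz2, H2-Ab1, Col1a1, Mc5r, Defb6 and Corin are named beside these and were chosen after their values were seen. The same holds for the values of Krt84, Krt26, Msx1 and Msx2 by library. Members, lists and tests were chosen with earlier results of these data known. Some gene symbols of the lists, Krt85, Flg and Trdc, were not analysed here. Shared sequence was counted as 50-base windows of GENCODE M21 transcripts.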

Additional observations from a re-analysis of the deposited data

How the results depend on the processing

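Under the 14 alternatives, edgeR and limma-voom called 0 of the 35 hair genes, and the DESeq2 Wald test called 2 lower. Over all genes, 63 higher and 17 lower became 554 and 283 by DESeq2, 104 and 38 with no filter, 34 and 8 with sex as a covariate, 2 and 1 against a 1.5-fold change, and 27 higher under total count scaling. Leaving out 1 library gave 0 to 288 higher and 0 to 134 lower, the most without Cre-positive replicate 3. In the other lists DESeq2 called Krt6a (1 higher), Krt17 (1 lower), Hr (1 higher), Sox21 and Ovol2 (2 lower) and Krtap13 (1 higher), and leaving out 1 library gave 0 to 1 lower among the shaft and sheath genes and likewise among the regulators. Among the members named by rule, signs turned for Krt33a (0.033) and Krt82 (0.22) without Cre-negative replicate 2, for Krt82 in limma-voom (0.0063), and for Gata3 without Cre-positive replicate 2 (0.019) or Cre-negative replicate 2 (0.017). When 1 library was left out, Krt33a ran from -0.51 to 0.033, Krt82 from -0.22 to 0.22 and Gata3 from -0.11 to 0.019. The cause was not tested. Total count scaling moved the median of all genes to -0.12 and that of the 35 hair genes to -0.52. Depth limits Krt74, Krt84 and Krt36, with 12 to 88 counts in a library. No paired analysis was possible because the labels give no replicate numbers shared between the groups.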
